A study of Mus musculus with 4 samples.

Results

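The genes described here are 10 genes of autophagy and mitophagy: Ulk1, Ulk2, Gabarap, Gabarapl1, Map1lc3a, Map1lc3b, Sqstm1, Wipi1, Bnip3 and Bnip3l. They were chosen by name, as the genes of autophagy initiation, of the LC3 family and of the mitophagy receptors, out of 36315 genes on the arrays, and every probe of each gene was read, 19 of 55681 probes in all. The cells were 32D-EpoR, a mouse haematopoietic line that bears an erythropoietin receptor and is otherwise kept in medium conditioned by WEHI cells. Before the experiment that medium was washed away, and all cells then stood in RPMI with 10% serum. The first group received erythropoietin (Epo), the hormone that drives red cell formation, at 10 U/ml, and the second group received none. Each group was measured on 2 single-colour Agilent arrays, in 2 independent experiments that used different passages. The sources used here give neither the time in Epo nor whether the line is 1 clone. The comparison therefore sets cells with Epo against cells of the same line that had serum but neither Epo nor conditioned medium.

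Autophagy encloses part of the cytoplasm in a double membrane and delivers it to the lysosome. The ULK kinase complex starts the process when mTORC1 activity is low or AMPK is active, WIPI proteins read the lipid made by the class III PI3 kinase, and proteins of the LC3 and GABARAP families are attached to the growing membrane, where they bind cargo receptors such as Sqstm1 (p62). In mitophagy the cargo is the mitochondrion, and in red cell precursors Bnip3l (NIX) is the receptor best known for clearing mitochondria during maturation. Much of the control of these proteins lies in phosphorylation and lipid attachment, which an RNA array does not measure.

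All values below are scanner intensities on a log2 scale after each array was brought to a common 75th percentile, and a log2 change is the mean with Epo minus the mean without Epo. The 75th percentile stood at 347 and 454 intensity units on the arrays with Epo, against 224 and 250 on the arrays without Epo, so the choice of scaling bears on every direction. Between 42.7% and 47.9% of probes were well above background with Epo, and 41.3% to 41.5% without Epo. Of 17555 genes tested with limma, 2302 were higher and 2502 lower at a Benjamini-Hochberg adjusted p of at most 0.05, and the median log2 change was -0.062. With the percentile taken over detected probes those counts were 1884 and 3646, with a median of -0.19, and with no scaling they were 8231 and 364, with a median of 0.68. For the cell type, of 12 haematopoietic and myeloid progenitor markers, 10 were tested, limma called 0 of them, with 0 at an unadjusted p under 0.05, and the summed scaled intensity of those tested was 131995 to 147139 with Epo and 154578 to 163740 without Epo. The erythroid marker Alas2 was not well above background, nor were Kit and Csf2ra. The 2 erythroid markers tested, of which 1 was called lower and 0 higher, summed to 1816 to 2338 with Epo and 3629 to 4586 without Epo. Macrophage markers summed to 4475 to 4795 with Epo and 3592 to 3669 without Epo over the 4 of 5 genes tested, with 1 called higher and 1 lower and Marco not above background. Of 4 stromal markers, 1 was tested and called lower, at 38.0 to 43.6 with Epo and 220 to 224 without Epo, while Col1a1, Col1a2 and Col3a1 were not above background. The 1 lymphoid marker tested was also called lower, at 196 to 209 with Epo and 385 to 520 without Epo. The part of these markers in the values below was not tested.

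Of the 10 genes, 1 was lower with Epo, 0 were higher, 8 did not pass the test and 1 was not above background. The gene that fell was Ulk1, by 1.37 on the log2 scale. At an unadjusted p under 0.05 limma gave 3 of the 9 tested genes, Ulk1 and Gabarap lower and Gabarapl1 higher, where 42.7% of all genes had such a p. Over all genes 27.4% passed the adjusted threshold, 13.1% higher and 14.3% lower, so the share of the 9 genes called was not above that of the array as a whole. The median log2 change of the 9 genes was -0.18, with 7 below 0 and 2 above. Of the 19 probes, 18 passed the filter on low signal, and each of these was well above background on all 4 arrays. All probes of the genes are described by their place on mm9, the build given in the files, and the probes of a gene are numbered by their start.

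The probes that follow and the promoter stretches after them show what the arrays read. For 3 probes the 60 bases that were measured are printed, in lower case and in the sense of the gene, as readings of the GABARAP family, of a cargo receptor and of a WIPI protein that the values refer back to: Gabarap probe 2 (chr11:69806095-69806154, plus strand), Sqstm1 (chr11:50015985-50016044, minus strand) and Wipi1 probe 2 (chr11:109443686-109443745, minus strand).
Gabarap probe 2: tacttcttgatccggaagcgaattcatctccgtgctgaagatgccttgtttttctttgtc
Sqstm1: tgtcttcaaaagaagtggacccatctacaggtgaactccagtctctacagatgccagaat
Wipi1 probe 2: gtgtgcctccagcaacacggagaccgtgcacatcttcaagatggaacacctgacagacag

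For 3 genes the 250 bases before the RefSeq transcription start are printed as RefSeq gives them on GRCm38.p6, since Ulk1 carries the called change, a Gabarap probe lies before that start, and Bnip3 is the 1 gene of the group with an E-box there. RefSeq promoter entries were matched for 8 of the 10 genes, all but Map1lc3a and Bnip3l. In Ulk1 (chr5:110810082-110810331, minus strand) capitals mark the 5 GC boxes, GGGCGG or its complement.
Ulk1: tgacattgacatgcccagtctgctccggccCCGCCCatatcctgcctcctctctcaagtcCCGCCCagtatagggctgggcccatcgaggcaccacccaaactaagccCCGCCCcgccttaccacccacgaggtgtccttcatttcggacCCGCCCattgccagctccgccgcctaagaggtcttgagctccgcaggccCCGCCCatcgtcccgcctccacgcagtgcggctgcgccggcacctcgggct
In Gabarap (chr11:69991120-69991369, plus strand) capitals mark the 60 bases of Gabarap probe 1.
Gabarap: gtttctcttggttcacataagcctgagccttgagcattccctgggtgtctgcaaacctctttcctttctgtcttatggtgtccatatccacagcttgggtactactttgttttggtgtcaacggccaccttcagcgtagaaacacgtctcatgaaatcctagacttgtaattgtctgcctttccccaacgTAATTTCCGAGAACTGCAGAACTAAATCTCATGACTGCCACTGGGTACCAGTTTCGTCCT
In Bnip3 (chr7:138909507-138909756, minus strand) capitals mark the E-box CACGTG, the motif that TFEB and its relatives bind.
Bnip3: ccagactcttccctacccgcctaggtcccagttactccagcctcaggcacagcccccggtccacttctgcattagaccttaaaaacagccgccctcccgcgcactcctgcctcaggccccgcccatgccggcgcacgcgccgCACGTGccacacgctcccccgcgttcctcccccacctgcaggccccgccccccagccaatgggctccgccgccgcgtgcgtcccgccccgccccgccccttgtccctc
Each motif was searched on both strands of the same 250 bases in 32851 promoters. The GC box GGGCGG stood in 7 of the 8 promoters of the group, all but Gabarap, and in 32.7% of all promoters. The E-box CACGTG stood in 1 of 8 and in 6.0% of all, and the FOXO motif TGTTTAC in 0 of 8 and in 3.2% of all. The STAT5 motif TTCNNNGAA, named here because Epo signals through STAT5, stood in Gabarap, Gabarapl1 and Wipi1 and in 7.0% of all promoters. In Gabarap the match lies within the bases of probe 1, which the array annotation places inside an Ensembl transcript of the gene. The core ACGTG, shared by HIF sites and contained in the E-box, stood in Gabarap and Bnip3 and in 16.6% of all. The core of the antioxidant response element, TGACNNNGC, stood in Ulk2 and in 10.2% of all. A match of letters is a description and does not show that a factor is bound.

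**Figure D1:**
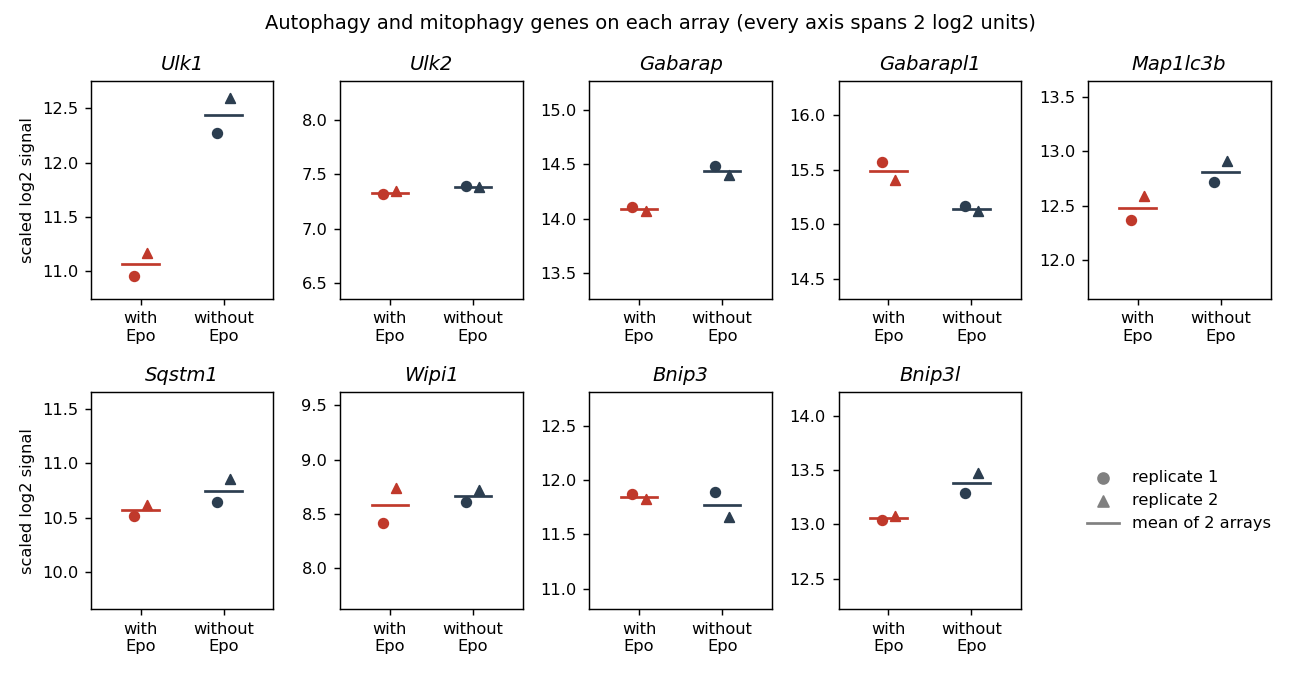
Scaled log2 signal of each of the 9 tested genes on each array, at the probe that stands for the gene, with Epo on the left and without Epo on the right of each panel; points are arrays, lines are means of 2 arrays, and every panel spans 2 log2 units. The Ulk1 arrays with Epo, at 10.96 and 11.17, lie over 1 unit under those without Epo, and no other gene parts its groups by as much.

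Ulk1 is the kinase that starts autophagosome formation. Its 1 probe (chr5:111213514-111213573, minus strand) read 2248 and 3420 intensity units with Epo, against 3617 and 5053 units without Epo. On the scaled log2 scale the 4 arrays stood at 10.96 and 11.17 with Epo, against 12.28 and 12.59 without Epo. Both arrays with Epo were thus lower than both arrays without Epo, before scaling as well as after it. The log2 change was -1.37 ± 0.17 (SE, n = 2 arrays per group), with a 95% interval from -1.82 to -0.93 and an adjusted p of 0.0101 in limma over all genes. The gene's signal without Epo was thus 2.59 times that with Epo. Replicate 1 alone gave a log2 change of -1.32 and replicate 2 a change of -1.42. Only 2.63% of the genes tested had a lower log2 change. Among the 1682 genes within 0.5 log2 units of its mean level, the median log2 change was 0.048 and the middle 50% lay between -0.22 and 0.39. The call was lost in 3 of the 12 alternative analyses, each with the log2 change still below 0: with no scaling (-0.62, adjusted p = 0.0906), with no filter on dim probes (adjusted p = 0.125) and without replicate 1 with Epo (-1.26, adjusted p = 0.0753). Since the RNA came from whole cultures, fewer cells of a type and less of this RNA per cell cannot be told apart.

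Ulk2 is the close relative of Ulk1 in the same complex. Its probe 2 (chr11:61591022-61591081, minus strand) stood at 7.32 and 7.34 with Epo, against 7.39 and 7.38 without Epo. The groups did not overlap, but by a margin of under 0.1. Its log2 change was -0.056, with an interval from -0.35 to 0.24 and an adjusted p of 0.731. Probe 1 (chr11:61589841-61589900, minus strand) gave a log2 change of -0.41, with an interval from -0.85 to 0.030 and an adjusted p of 0.139 in the fit over probes. With the replicate block that probe passed the test as lower (adjusted p = 0.0407). The interval of the gene's log2 change does not reach the -1.37 of Ulk1. With no scaling the change of Ulk2 turned to 0.69. The other 3 subunits of the ULK complex were all tested. Atg101, which stabilises Atg13, fell by 0.70 on the log2 scale (SE 0.12, adjusted p = 0.0193), though its change was 0.045 with no scaling. Rb1cc1 (FIP200), the scaffold, had a change of -0.41 and Atg13, the adaptor that mTORC1 phosphorylates, one of -0.26, and neither passed the test. The complex thus gave 2 of 5 genes lower, Ulk1 among them, and 0 higher, where 14.3% of all genes were lower and 13.1% higher. At an unadjusted p under 0.05 limma gave the same counts, where 42.7% of all genes had such a p. The median of the complex was -0.41, against -0.062 over all genes. With no scaling it was 0.34, against 0.68 over all genes.

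**Figure D2:**
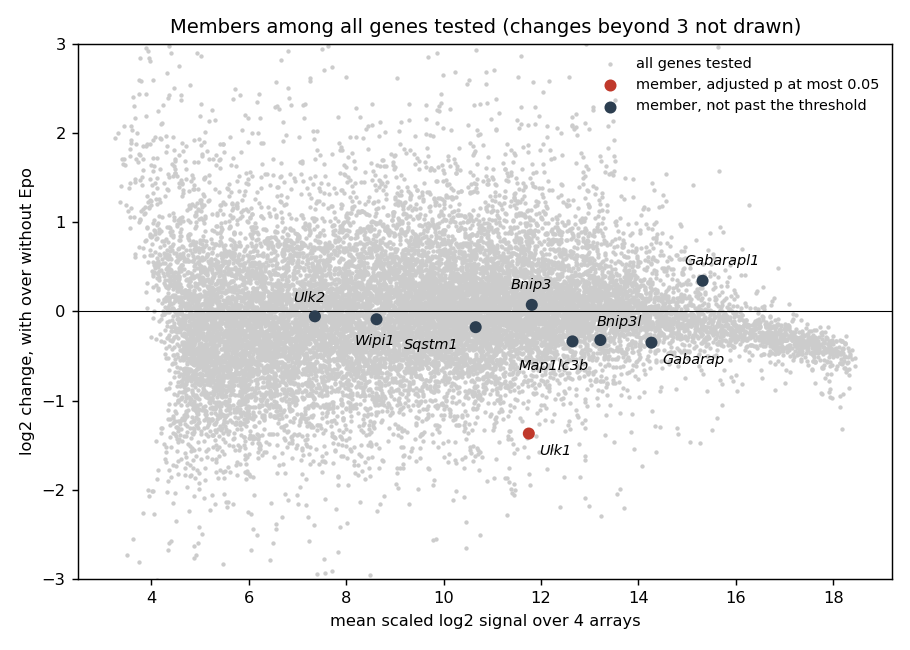
Log2 change (with Epo over without Epo) against mean scaled log2 signal over 4 arrays, for all genes tested in grey, the 8 uncalled genes of the group in dark blue and Ulk1 in red. Ulk1 lies at -1.37, under most genes of like level, while the other 8 lie between -0.35 and 0.34; with no scaling the change of every gene but Ulk1 is above 0.

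Wipi1 binds the phosphatidylinositol 3-phosphate made at the forming membrane. Its probe 1 (chr11:109435140-109435199, minus strand) stood at 8.42 and 8.74 with Epo, against 8.61 and 8.72 without Epo. The groups overlapped, and the 2 replicates gave changes of opposite sign, -0.20 and 0.021. This gave a log2 change of -0.088, with an interval from -0.50 to 0.33 and an adjusted p of 0.702. Probe 2, printed above, gave -0.030. Both probes thus gave changes close to 0. With no scaling the change of Wipi1 turned to 0.66.

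The LC3 and GABARAP proteins are ubiquitin-like and are joined to lipid on the autophagosome. Gabarap was read by 3 probes, of which probe 3 (chr11:69808343-69808402, plus strand) was the brightest and stands for the gene. It stood at 14.11 and 14.07 with Epo, against 14.48 and 14.40 without Epo. Both arrays with Epo were lower. The log2 change was -0.35 ± 0.11 (SE, n = 2 per group), with an interval from -0.65 to -0.050 and an adjusted p of 0.0838. Probe 2, printed above, stood at 12.70 and 12.90 with Epo, against 12.83 and 13.10 without Epo, with overlap and a change of -0.17. Probe 1 (chr11:69804812-69804871, plus strand), the stretch in capitals above that ends at the base before the RefSeq start, had only 141 and 189 intensity units with Epo and 77.9 and 90.6 without Epo. After scaling it stood at 6.96 and 6.99 with Epo, against 6.74 and 6.79 without Epo, a log2 change of 0.21 with an adjusted p of 0.235. The 3 probes of Gabarap therefore disagreed in sign, and the one with the change above 0 lies before the RefSeq start. The array annotation places that probe at base 167 of an Ensembl transcript of Gabarap. With the mean of the gene's probes the log2 change was -0.10, with an adjusted p of 0.535 in limma. With the replicate number as a block the gene passed the test as lower (adjusted p = 0.0410), and with no scaling its change turned to 0.40.

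Gabarapl1, a close relative that FOXO factors are known to control in muscle, had 1 probe. That probe (chr6:129492254-129492313, plus strand) read 55158 and 64232 intensity units with Epo, against 26891 and 29085 units without Epo. After scaling it stood at 15.57 and 15.40 with Epo, against 15.17 and 15.12 without Epo. Both arrays with Epo were higher. The log2 change was 0.34 ± 0.12 (SE, n = 2 per group), with an interval from 0.015 to 0.67 and an adjusted p of 0.107. Genes of like level had a median change of -0.11 (413 genes). With the replicate block the gene passed the test as higher (adjusted p = 0.0498), as it did with normexp background correction (0.44, adjusted p = 0.0390) and with no scaling (1.09, adjusted p = 0.00291).

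Map1lc3b (LC3B), the family member most used to follow autophagosomes, was printed as 10 spots of 1 probe (chr8:124121771-124121830, plus strand). Their mean stood at 12.37 and 12.59 with Epo, against 12.72 and 12.91 without Epo. Both arrays with Epo were lower, and the single spots ran from 12.28 to 12.67 with Epo and from 12.63 to 13.06 without Epo. The SD between spots of 1 array was 0.057 and 0.062 with Epo and 0.050 and 0.073 without Epo, smaller than the step between the arrays of a group. Over the 10 spots the log2 change was -0.34, with an interval from -0.72 to 0.046 and an adjusted p of 0.151, or 0.0429 with the replicate block. With no scaling the change turned to 0.41. Map1lc3a (LC3A) had 1 probe (chr2:155103435-155103494, plus strand), not well above background on any array, at 4.49 and 3.36 intensity units with Epo and 3.99 and 4.21 without Epo, so no change is given. Gabarapl2 (GATE-16), the remaining gene of the family list, had a log2 change of 0.14 with an adjusted p of 0.380. Of the 4 tested genes of the family limma called 0, where 27.4% of all genes were called. At an unadjusted p under 0.05, 1 was higher and 1 lower, where 42.7% of all genes had such a p. With the replicate block 1 was higher and 2 were lower, where 43.1% of all genes were called.

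Sqstm1 (p62) carries ubiquitin-tagged cargo to LC3 and is itself degraded by autophagy. Its probe, printed above, stood at 10.52 and 10.62 with Epo, against 10.64 and 10.85 without Epo. The groups did not overlap, but the nearest arrays lay close together. For Sqstm1 the log2 change was -0.18, with an interval from -0.53 to 0.18 and an adjusted p of 0.369, and with no scaling it turned to 0.57. Among the 9 cargo receptors 2 were higher and 1 was lower, with a median log2 change of -0.18. Over all genes 13.1% were higher and 14.3% lower. Tax1bp1, a ubiquitin-binding receptor, rose by 0.95 (SE 0.13, adjusted p = 0.0125) and Tollip, an adaptor for ubiquitin-tagged aggregates, by 0.56 (adjusted p = 0.0442). Retreg1 (FAM134B), a receptor for the endoplasmic reticulum, fell by 0.54 on the log2 scale (adjusted p = 0.0317), with its change above 0, at 0.21, with no scaling.

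Bnip3 and Bnip3l sit in the outer mitochondrial membrane and bind LC3 and GABARAP proteins directly. Bnip3, a known target of hypoxia-inducible factor, stood at 11.87 and 11.83 with Epo, against 11.89 and 11.66 without Epo, at its brightest probe (probe 3, chr7:146082760-146082819, minus strand). The groups overlapped, and the replicates gave changes of -0.024 and 0.17. For Bnip3 the log2 change was 0.073, with an interval from -0.28 to 0.43 and an adjusted p of 0.711. Probe 2 (chr7:146082640-146082699, minus strand) gave 0.15 and probe 1 (chr7:146082536-146082595, minus strand), a dim probe of 24.0 to 57.6 intensity units, gave 0.20. The sign of the Bnip3 change turned with quantile normalization (-0.055) and with the percentile over detected probes (-0.051), and with no scaling it was 0.82.

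Bnip3l stood at 13.04 and 13.07 with Epo, against 13.29 and 13.47 without Epo, at its brightest probe (probe 3, chr14:67606210-67606269, minus strand). Both arrays with Epo were lower. The log2 change was -0.32 ± 0.13 (SE, n = 2 per group), with an interval from -0.65 to 0.011 and an adjusted p of 0.125, or 0.0617 with the replicate block. The other 3 probes, at chr14:67604077-67604136, chr14:67606087-67606146 and chr14:67606311-67606370, gave changes of -0.23, -0.21 and -0.16. All 4 probes thus had the same sign, but they read 1 RNA in the same 4 samples and are not replicates, and with no scaling the change was 0.42. Of the 10 mitophagy receptors and regulators, all tested, limma called 0, where 27.4% of all genes were called. At an unadjusted p under 0.05, 1 was higher and 0 lower, where 42.7% of all genes had such a p. With the replicate block 1 was higher and 1 lower, where 43.1% of all genes were called. The median was 0.023. Mul1, a ubiquitin ligase of the outer membrane, had a change of 0.42 (adjusted p = 0.0528) and Pink1, the kinase that marks damaged mitochondria, one of -0.36 (adjusted p = 0.187).

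**Figure D3:**
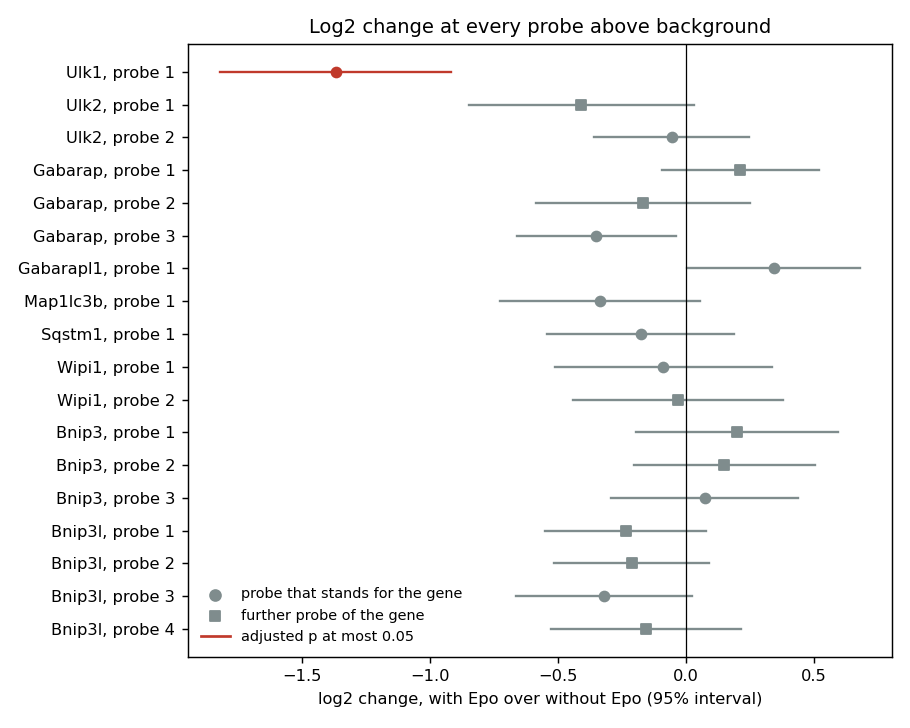
Log2 change (with Epo over without Epo) and its 95% interval at each of the 18 probes above background; circles are the probes that stand for their genes, squares are further probes, and red marks an adjusted p of at most 0.05. Ulk1 is the only red point, the 3 Gabarap probes lie on both sides of 0, and the 4 Bnip3l probes lie together below 0; with no scaling all points but Ulk1 move above 0.

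Over the 18 probes, 1 was called lower and 0 higher in limma's fit over probes, where 12.9% of all probes were called lower and 25.9% in either direction. The 2 groups did not overlap at 12 of the 18 probes, and at 68.3% of all probes. Of the 18, 13 had a change below 0 and 5 above. The 5 genes with several probes above background kept 1 sign over their probes, except Gabarap.

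Leaving out the scaling turned the sign of 6 of these changes. It raised the log2 change of every gene by the same amount. With no scaling, 8 of the 9 changes were above 0 and Ulk1 alone was below, and the median of all genes stood at 0.68. Since that median moved by the same amount, the place of Ulk1 relative to it could not change. With quantile normalization or the percentile over detected probes, 8 of 9 were below 0, and with normexp background correction 7 of 9. With no scaling 2 of the 9 genes were called higher and 0 lower, where 46.9% of all genes were called higher, 2.07% lower and 49% in all, and 4 of the 9 had an unadjusted p under 0.05, as had 57% of all genes. With the percentile over detected probes 2 were lower, Ulk1 and Gabarap, where 20.8% of all genes were. With normexp 1 was higher and 1 lower, where 15.8% of all genes were higher, 20.7% lower and 36.5% in all. With the replicate block 1 was higher and 3 were lower, where 19.9% of all genes were higher and 23.2% lower, and 0 of the 18 probes were higher and 4 lower, where 19.8% of all probes were higher, 20.5% lower and 40.4% in all.

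**Figure D4:**
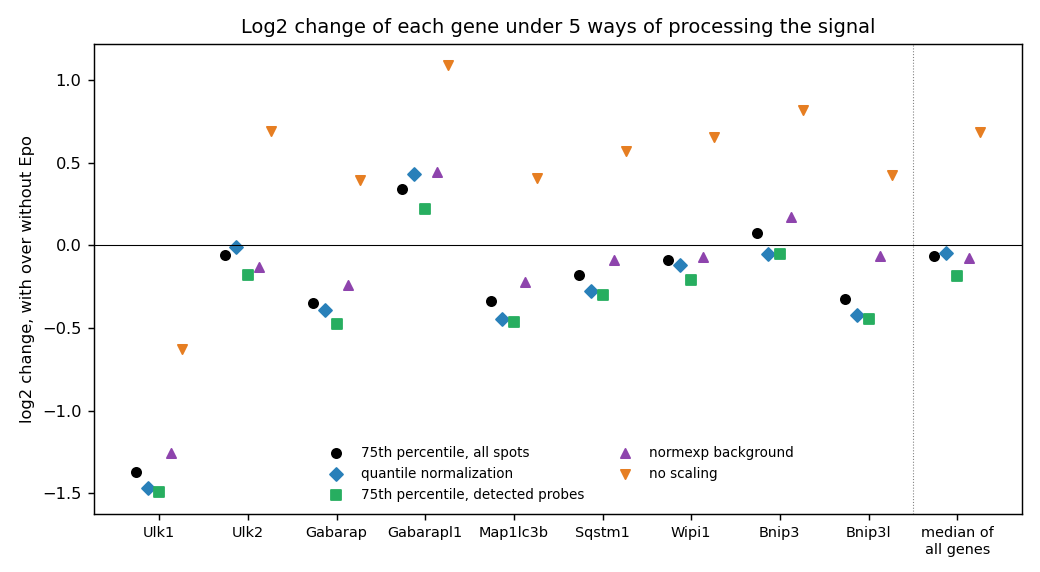
Log2 change of each tested gene, and the median over all genes, under 5 ways of processing the signal, each with its own symbol. Ulk1 lies below 0 in all 5, between -1.49 and -0.62, whereas with no scaling every other gene and the median of all genes, at 0.68, lie above 0.

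The genes that work beside these 10 were taken as 13 lists, given with the numbers called higher and lower. The first 8 lists cover the autophagy machinery, from the ULK complex to fusion, and held 69 genes with 66 tested. Of these, 6 were higher and 10 were lower, 24.2% in all, near the 27.4% of all genes, with a median log2 change of -0.057. With the replicate block the counts were 11 and 19, where 43.1% of all genes were called. Of the 8 genes of the class III PI3 kinase complex, 1 was higher and 2 were lower. Atg14, which directs the kinase to autophagy, fell by 0.95 on the log2 scale (SE 0.13, adjusted p = 0.0119), and Uvrag, its alternative partner, by 0.58 (adjusted p = 0.0317, but 0.17 with no scaling), while Nrbf2, a further subunit, rose by 0.88 (adjusted p = 0.0233). Among 7 tested genes of the ATG9, ATG2 and WIPI proteins, 3 were lower and 0 higher at an unadjusted p under 0.05. Of all genes 42.7% had such a p. At the adjusted threshold 2 were lower and 0 higher. These were Wdr45, a WIPI relative, with a log2 change of -0.78 (adjusted p = 0.0147), and Atg9a, the membrane protein of the early vesicles, with a log2 change of -0.64 (adjusted p = 0.0415, but 0.11 with no scaling). In the LC3 conjugation machinery 1 of 10 tested genes was higher and 1 lower. Atg16l1, which places the conjugation complex, rose by 0.87 (adjusted p = 0.0202), and Atg7, the activating enzyme, fell by 0.64 on the log2 scale (adjusted p = 0.0242, but 0.10 with no scaling), though its second probe gave a change of -0.014. Fusion with the lysosome had 13 tested genes, 2 higher and 2 lower. The SNARE proteins Snap29 and Stx17 rose by 0.77 (adjusted p = 0.0195) and 0.60 (adjusted p = 0.0315). Over the 3 probes of Stx17 the changes ran from 0.22 to 0.60. The tethering factors Tecpr1 and Plekhm1 fell by 0.80 (adjusted p = 0.0165) and 0.65 (adjusted p = 0.0497, but 0.095 with no scaling) on the log2 scale.

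**Figure D5:**
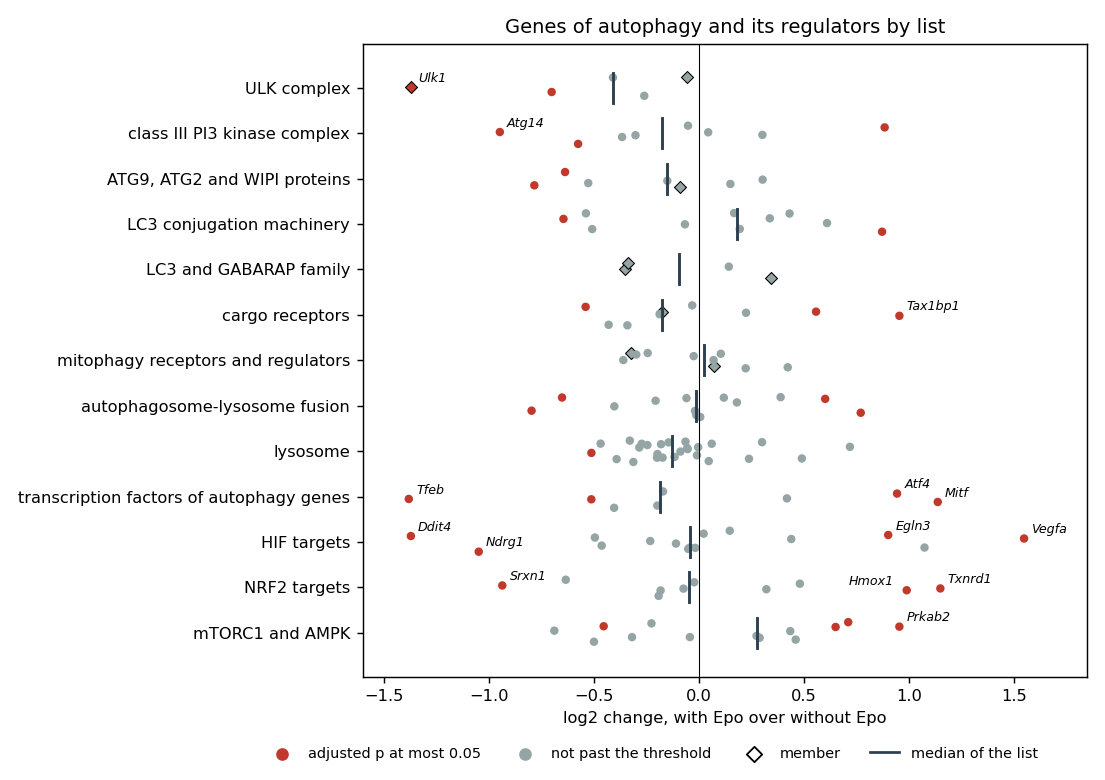
Log2 change (with Epo over without Epo) of each tested gene of the 13 lists, one row per list; red points passed the adjusted threshold, grey ones did not, diamonds are genes of the group, and vertical bars are list medians. Called genes lie on both sides of 0 in most lists. The lysosome list, with 26 tested genes, has 1 red point, where 27.4% of all genes were called. With no scaling 9 of the 17 red points below 0 move above it.

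Of 26 lysosomal genes limma called 1 lower and 0 higher, 3.85% in all, where 27.4% of all genes were called. The lower gene was Mcoln1, the calcium channel of the lysosome, by 0.51 on the log2 scale (adjusted p = 0.0414, but 0.23 with no scaling). At an unadjusted p under 0.05, 1 was higher and 3 were lower, where 42.7% of all genes had such a p. Of 11 transcription factors of autophagy genes, 8 were tested, and Foxo1, Foxo3 and Foxo4 were not above background. Of the 8, limma called 2 higher and 2 lower, 50% in all, where 27.4% of all genes were called. Tfeb, the main activator of lysosomal and autophagy genes, stood at 5.52 and 5.92 with Epo, against 7.004 and 7.20 without Epo. Both arrays with Epo were lower, and the log2 change was -1.38 ± 0.18 (SE, adjusted p = 0.0117). This was near the -1.37 of Ulk1, but the signal of Tfeb was far lower than that of Ulk1. With normexp background correction the change was -0.98 for Tfeb and -1.26 for Ulk1. Mitf, of the same family, rose by 1.14 (adjusted p = 0.0115), and Atf4, the factor of amino acid stress, by 0.94 (adjusted p = 0.0155). Ddit3 (CHOP), a partner of Atf4, fell by 0.51 on the log2 scale (adjusted p = 0.0445, but 0.23 with no scaling). Tfe3 (-0.40), Nfe2l2 (-0.20), Zkscan3 (-0.17) and Hif1a (0.42) did not pass.

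Lists of neighbouring pathways gave calls in both directions, where 13.1% of all genes were called higher and 14.3% lower. Of 15 tested HIF targets, a list that leaves out Bnip3, counted with the mitophagy genes, 2 were higher and 2 were lower. Vegfa, a growth factor for vessels, rose by 1.55 (adjusted p = 0.0055), though its second probe gave a change of 0.55. Egln3, an oxygen sensor, rose by 0.90 (adjusted p = 0.0140). Ddit4 (REDD1), an inhibitor of mTORC1, and Ndrg1, a stress gene, fell by 1.37 (adjusted p = 0.0076) and 1.05 (adjusted p = 0.0139) on the log2 scale. Of 10 NRF2 targets, the pathway that p62 feeds by binding KEAP1, 2 were higher and 1 was lower. Txnrd1, a thioredoxin reductase, rose by 1.15 (adjusted p = 0.0275) and Hmox1, which degrades heme, by 0.99 (adjusted p = 0.0131), and Srxn1, a sulfiredoxin, fell by 0.94 on the log2 scale (adjusted p = 0.0184). Of 13 tested genes of mTORC1 and AMPK, the kinases that set Ulk1 activity, 3 were higher and 1 was lower. The AMPK subunits Prkab2 and Prkaa1 rose by 0.95 (adjusted p = 0.0094) and 0.71 (adjusted p = 0.0398), and the subunit Prkag1 fell by 0.45 on the log2 scale (adjusted p = 0.0499, but 0.29 with no scaling).

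Over the 13 lists 15 genes were higher and 17 lower of 138 tested, 23.2% in all, against 27.4% of all genes. With no scaling the change of 9 of the 17 lower genes turned above 0: Atg101, Uvrag, Atg9a, Atg7, Retreg1, Plekhm1, Mcoln1, Ddit3 and Prkag1. The changes of Ulk1, Tfeb, Ddit4, Ndrg1, Atg14, Srxn1, Tecpr1 and Wdr45 stayed below 0 there. Leaving out the scaling raised every log2 change by the same amount, so the 15 higher genes could not turn. Quantile normalization and normexp turned 0 of the 32. The percentile over detected probes lowered every change by the same amount, smaller than any called change, so it could not turn them either. The calls rest on every array: without replicate 1 with Epo 0 of the 32 still passed, without replicate 2 with Epo 8, without replicate 1 without Epo 16 and without replicate 2 without Epo 10, and all 32 kept their sign in each case.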

How the data were processed

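Total RNA was labelled with Cy3 and hybridised to 4 single-colour arrays on 1 slide with 1 scan, 2 arrays per group. Per the file headers, the deposited values are processed intensity readings that Feature Extraction 10.1.1.1 had corrected for background, with no scaling across arrays. limma is named in the submitters' processing notes, with no role given. From the deposited intensity the log2 was taken, each array's 75th percentile over 59305 non-control spots was subtracted, and the mean of the 4 percentiles was added back. Dropping outlier spots cost 9 probes, and 0 spots were saturated. Spots of a probe were averaged. The filter asked for signal well above background on both arrays of 1 group or more and kept 23735 probes, of which the brightest stood for each gene. Gene names were updated through a RefSeq table of GRCm38.p6, and probe positions are those of the files on mm9.

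The comparison used lmFit and eBayes of limma 3.58.1 (R 4.3.3), two-sided, and p-values were adjusted by Benjamini-Hochberg across all genes, or all probes, at a threshold of 0.05. The fit had 2 residual and 4.57 total degrees of freedom, and its median SE was 0.145 (log2). The small number of arrays limits the precision, and the smallest change called was 0.43. The 10 genes, the lists and the alternatives were chosen with earlier results of these data known. All 10 genes and their probes are named. From each list up to 2 called rises and 2 called falls are named, or the 2 smallest p-values where none passed, and all transcription factors. Some cell type markers that were not tested are not reported here. Only the limma fit was tested on simulated data, made as finished gene values. The scaling, the filter, the averaging of spots and the choice of probe were not tested in this way.

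The design speaks of 2 independent experiments, and the replicate numbers were read as those, which pairs the samples. The deviations of same-numbered samples correlated at 0.386 over genes, which are no independent replicates. Adding the replicate block leaves 1 residual degree of freedom. The alternatives were normexp (offset 50), the percentile over detected probes, quantile normalization, no scaling, no filter on dim probes, probes above background on all arrays, the mean of a gene's probes, the replicate block, and each array left out in turn.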

Additional observations from a re-analysis of the deposited data

How the results depend on the processing

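The log2 change of Ulk1 ran from -1.53 to -0.62 over the 12 alternatives. Among those that keep all 4 arrays, its call was lost with no scaling and with no filter on dim probes. Many alternatives could not have turned its direction. The change is the same -1.37 under both other filters on dim probes, with the mean of a gene's probes and with the replicate block. Since its groups do not overlap, leaving out 1 array could not turn it either. With no scaling 2 of the 10 genes were higher and 0 lower, and the changes turned to 0.69 for Ulk2, 0.40 for Gabarap, 0.41 for Map1lc3b, 0.57 for Sqstm1, 0.66 for Wipi1 and 0.42 for Bnip3l. There 5 probes were higher and 0 lower, 59 list genes were higher and 0 lower, and 8231 of all genes were higher and 364 lower. The change of Bnip3 turned to -0.051 with the percentile over detected probes and to -0.055 with quantile normalization. Leaving out 1 array in turn moved it between -0.043 (without replicate 2 without Epo) and 0.19, and that of Wipi1 between -0.25 and 0.074 (without replicate 1 with Epo). With the percentile over detected probes 2 of the genes (Ulk1 and Gabarap) and 2 probes were lower, as were 26 list genes, and 14 list genes were higher. Of all genes 20.8% were lower there and 10.7% higher. With normexp 1 gene (Gabarapl1) and 1 probe were higher, and 25 list genes. There 1 gene (Ulk1), 1 probe and 19 list genes were lower. Of all genes 15.8% were higher with normexp and 20.7% lower. With the replicate block, which treats same-numbered arrays as pairs, 1 of the genes was higher (Gabarapl1) and 3 were lower (Ulk1, Gabarap and Map1lc3b), 4 probes were lower, 26 list genes were higher and 30 lower, and 3497 of all genes were higher and 4068 lower. The block changed no other call among the 9 tested genes. With no filter on dim probes 36310 genes were tested and 0 were called higher or lower by limma, with 7148 at an unadjusted p under 0.05, so the counts of the genes, probes and lists were 0 as well. Leaving out 1 array in turn gave 461 to 1558 genes higher and 198 to 1771 lower, 0 to 12 list genes higher and 0 to 6 lower, and 0 to 1 of the genes and 0 to 1 of the probes lower. The lowest of these counts came without replicate 1 with Epo, and the array left alone in its group was assumed to vary like the others. The causes were not tested. In the main fit, with 2 arrays per group, changes under 0.43 were not called, and the 95% intervals of the 8 uncalled genes lay between -0.72 and 0.67.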
